A study of Homo sapiens with 18 samples.

Results

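FUBP1, FUBP3, KHSRP, KIAA0907, KHDRBS1, KHDRBS3 and QKI encode proteins with KH domains, which bind RNA. The rows of these genes were taken by name from one table of the whole series, and they make up 7 of 32490 gene names and 67 of 145326 transcripts. FUBP1 and KIAA0907 were chosen for their change after 8 h, so every change of these genes with exposure time is given as a description, with no p, and nothing is read from whether it was called. The other 5 genes were added as relatives, and their changes were tested. The expression of 18 samples was measured by RNA-SEQ of poly-A selected RNA from spheroidal aggregates that had settled for a day in a Matrigel-filled channel. DAOY is an established line from a human desmoplastic cerebellar medulloblastoma, and U87 mg one from a human glioblastoma. Aggregates of each line were lysed after 0, 2 or 8 h in a continuous direct-current field of 250 V/m, with 3 samples for each of the 6 combinations and 3 channels pooled into each sample. Only the 0 h samples served as controls here, which means that the effects of the field and of the hours spent in the channel cannot be told apart, and each tumor type is represented by a single line. In such bulk samples, fewer cells of a type and less RNA per cell cannot be told apart.

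The KH domain is a small fold that holds a short stretch of single-stranded RNA or DNA. FUBP1 was named for binding the far upstream element (FUSE), a single-stranded DNA site before the MYC promoter, and it also binds RNA near splice sites. FUBP3 and KHSRP belong to the same family, and KHSRP promotes the decay of mRNAs with AU-rich elements. KIAA0907, which newer annotation names KHDC4, encodes a KH protein that associates with the PRP19 splicing complex. KHDRBS1 (Sam68), KHDRBS3 and QKI belong to the STAR family, which joins signal transduction to splicing. QKI is best known in glia, where it acts on the splicing, export and stability of myelin mRNAs.

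The estimated counts of a sample summed to between 8341976 and 15610886 (median 10269092). All 7 genes passed the filter on low counts in every fit. Their mean level over all samples, scaled to transcript length, lay between the 78.9th percentile (KIAA0907) and the 94.6th percentile (QKI) of the 14517 genes above 0 in all samples. By estimated counts KHDRBS3 was the lowest of the 7, with 132 to 359 per sample. The labels of the lines were compared with marker genes. Of 8 glial markers, 5 reached a mean of 1 TPM (a level per transcript length and library total) in U87 mg and 4 in DAOY, and their summed level lay between 7097 and 8905 TPM in U87 mg and between 2805 and 4508 TPM in DAOY, most of it from VIM and CD44. S100B and SOX2 were under 0.1 TPM in U87 mg. Of 6 glial markers tested between the lines at 0 h, SOX2 was called higher in DAOY (4.24 against 0.02 TPM). NES (0.55 against 7.77 TPM) and VIM (2405 against 4744 TPM) were called lower. Of the granule neuron precursor markers, BARHL1 and NEUROD1 were under 0.1 TPM in both lines, and the summed level of the list lay between 36.7 and 61.5 TPM in U87 mg and between 35.8 and 68.3 TPM in DAOY. Of the 5 tested between the lines at 0 h, ZIC2 was called higher in DAOY (9.65 against 4.71 TPM). GLI1 (0.27 against 4.66 TPM) and GLI2 (1.25 against 4.23 TPM) were called lower. Over all genes, 23.4% were called higher and 17.8% lower in DAOY. Markers of stromal and blood cells summed to between 0.65 and 3.54 TPM in U87 mg and between 5.9 and 14.0 TPM in DAOY. PECAM1, the 1 gene of this list with enough counts for the test, was called higher in DAOY at 0 h (7.5 against 1.66 TPM).

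The transcripts of FUBP1 and KIAA0907 are shown first, because the reads of each gene were shared out among transcripts that differ at few places. FUBP1 lies on the minus strand of chromosome 1 (GRCh38, chr1:77944055-77979110). Its main coding transcript, ENST00000370768, has 20 exons and 644 codons. ENST00000294623, which is annotated as a target of nonsense-mediated decay (a pathway that degrades mRNAs with an early stop), follows the same exons up to base 77949155 and then joins exons farther downstream. The coding transcript ENST00000370767 joins from the same base to a longer form of the last exon. The last 15 shared bases are printed in lower case and the first 15 bases after the junction in capitals, all taken from GENCODE 29.
ENST00000370768 (chr1:77948760-77948774 after the junction): cctccagcacctcagGGCCAATAATAAGAA
ENST00000370767 (chr1:77948900-77948914 after the junction): cctccagcacctcagGGATTTGCAAATCAT
ENST00000294623 (chr1:77947538-77947552 after the junction): cctccagcacctcagTGCAGGTTTGATCCA
Apart from their first base, the other difference between ENST00000370768 and ENST00000294623 is a stretch of 3 bases at the start of the exon that begins at base 77967101. The 3 bases are in capitals.
ENST00000370768 (chr1:77967087-77967101 after the junction): gcatcagcagcaaagCAGatctgtaatgac
ENST00000294623 (chr1:77967087-77967098 after the junction): gcatcagcagcaaagatctgtaatgac

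KIAA0907 lies on the minus strand of the same chromosome (GRCh38, chr1:155913043-155934400). ENST00000368321 has 14 exons and 614 codons. ENST00000368320 keeps the last intron of 1552 bases (chr1:155914321-155915872), which leaves 13 exons and 564 codons, and both are annotated as protein-coding. The windows hold the last 15 shared bases in lower case, and in capitals the start of the last exon or of the retained intron, which opens with the GT of a 5′ splice site.
ENST00000368321 (chr1:155914306-155914320 after the junction): taacagggagccatgATTATCCAGCCAAGA
ENST00000368320 (chr1:155915858-155915872, intron): taacagggagccatgGTGAGTGTGATATAG
The small RNA genes SCARNA4 and SNORA80E lie on the same strand in introns 6 and 10 of the 13 introns of ENST00000368321, so neither lies in the retained intron.

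FUBP1 was highest in DAOY after 8 h. As the TPM summed over its 10 transcripts, it was 91.9, 101.9 and 117.8 in the DAOY samples at 0 h, 111.5, 130.0 and 142.6 at 2 h, and 275.9, 317.0 and 261.3 at 8 h. The 3 samples at 8 h lay above every other sample of the series, whereas the ranges at 0 h and 2 h overlapped. All 3 samples were higher at 8 h than at 0 h in 8.86% of all genes in DAOY. Mitochondrial genes took 5.97% to 8.44% of the counts in DAOY at 8 h, against 2.92% to 5.70% at 0 h and 4.25% to 5.72% at 2 h, and the part of this shift in the values of FUBP1 and KIAA0907 was not tested. In U87 mg it was 80.9, 67.2 and 62.5 TPM at 0 h, 84.2, 86.5 and 83.4 at 2 h, and 86.9, 96.2 and 108.3 at 8 h. These 3 groups did not overlap in TPM, where 10.8% of all genes had all 3 samples higher at 2 h and 5.8% at 8 h than at 0 h. In CPM (counts scaled to the library total) the samples at 0 h (77.7 to 104.0) and 2 h (92.8 to 101.0) did overlap. The mean at 8 h was 2.74 times that at 0 h in DAOY and 1.38 times in U87 mg. In the fit of the counts, the log2 fold change at 8 h was 1.62 ± 0.16 (SE) in DAOY and 0.56 ± 0.13 in U87 mg, and at 2 h it was 0.31 ± 0.15 and 0.13 ± 0.13. Ordered by mean level, the groups ran from U87 mg at 0 h (70.2 ± 9.58 TPM, SD, n = 3) through U87 mg at 2 h (84.7 ± 1.64) and 8 h (97.2 ± 10.7) to DAOY at 0 h (103.9 ± 13.02), 2 h (128.0 ± 15.6) and 8 h (284.8 ± 28.9). The neighbors U87 mg at 8 h and DAOY at 0 h overlapped, as did DAOY at 0 h and 2 h.

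KIAA0907 was also highest in DAOY after 8 h, and in this line it was already higher at 2 h. The DAOY samples held 25.6, 30.6 and 33.3 TPM at 0 h, 46.3, 54.4 and 61.5 at 2 h, and 92.3, 119.9 and 102.5 at 8 h. No sample of one time overlapped with another time, and 3.59% of all genes had all 3 samples higher at 2 h than at 0 h in DAOY. The U87 mg samples held 40.3, 44.2 and 32.9 TPM at 0 h, 40.7, 40.03 and 36.9 at 2 h, and 64.3, 71.8 and 77.3 at 8 h. The 2 h samples of U87 mg lay within the range at 0 h, and the 8 h samples lay above both. The mean was 1.81 times that at 0 h after 2 h and 3.51 times after 8 h in DAOY, and 1.82 times after 8 h in U87 mg. In log2 fold change these were 0.73 ± 0.18 (SE) and 1.89 ± 0.18 in DAOY and 1.03 ± 0.15 in U87 mg, where the value at 2 h was 0.01 ± 0.15. The order of group means ran from DAOY at 0 h (29.9 ± 3.91 TPM, SD, n = 3) through U87 mg at 0 h (39.1 ± 5.72) and 2 h (39.2 ± 2.02), DAOY at 2 h (54.1 ± 7.62) and U87 mg at 8 h (71.2 ± 6.51) to DAOY at 8 h (104.9 ± 14.0). Only the neighbors among the first 3 of these overlapped.

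KIAA0907 had a lower mean in DAOY than in U87 mg at 0 h and a higher one at 8 h, while FUBP1 had the higher mean in DAOY at all times. The difference of the 8 h changes (DAOY minus U87 mg) was 0.87 ± 0.25 (SE) on the log2 scale for KIAA0907 and 1.07 ± 0.20 for FUBP1. Both genes met the criteria for differential expression (FDR below 0.05 with a log2 fold change beyond 1 in size) in DAOY at 8 h, beside 1.19% of all genes tested that met them upward. In U87 mg at 8 h KIAA0907 met them and FUBP1 did not, beside 0.184% of all genes upward. In U87 mg KIAA0907 no longer met them without replicate 2 at 0 h (log2 fold change 0.82) and without replicate 2 at 8 h (0.94). There 5 and 0 genes in all met the criteria, against 90 with all samples. Among 8 other alternatives, KIAA0907 met the criteria in U87 mg at 8 h in 4. It missed the criteria by limma with either pseudocount, by a filter of 10 counts per sample, and where both lines were fitted together. At 2 h neither gene met them in either line, beside 0% of all genes by edgeR. There 1239 genes of the U87 mg fit and 424 of the DAOY fit had an unadjusted p under 0.05 and DESeq2 called 3 and 1. Since the genes were picked from these comparisons, nothing is read from these counts.

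**Figure D1:**
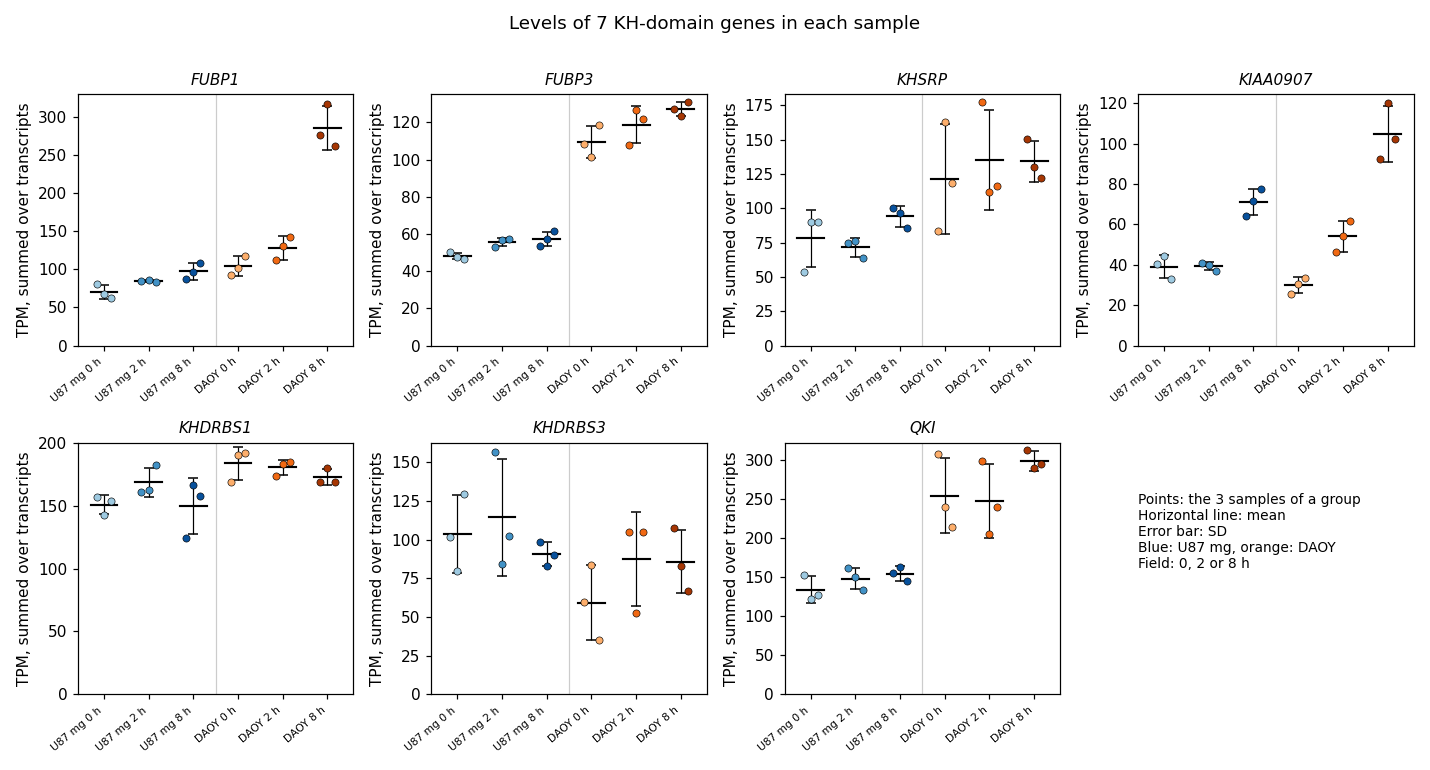
Level of each of the 7 genes in the 18 samples, as TPM summed over transcripts (vertical axes, each from 0) for the 6 combinations of line and exposure (horizontal axes), with each sample as a point, the mean as a line and the SD as a bar (n = 3). FUBP1 and KIAA0907 stand highest in the 3 DAOY samples at 8 h, FUBP3 and QKI lie higher in every DAOY sample than in every U87 mg sample, and KHSRP, KHDRBS3 and QKI scatter widely within some groups.

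FUBP1 and KIAA0907 were both picked for a change at 8 h, so a likeness between them follows from the choice and is no finding. With each line's mean removed, the log2 CPM of both genes correlated at r = 0.941 over the 18 samples, which are 6 groups and not independent draws, so this describes the group pattern. KIAA0907 stood at rank 6 among 9516 genes in likeness to FUBP1, and FUBP1 at rank 10 in likeness to KIAA0907. The genes nearest to FUBP1 by this measure were RBM33 (r = 0.98), PRRG4 (0.952), MALT1 (0.946), DDX17 (0.944) and ZNF143 (0.942). Those nearest to KIAA0907 were CHKA (0.977), ZNF143 (0.971), RBM33 (0.961), TNRC6A (0.96) and CHD2 (0.954). RBM33 and ZNF143 thus stood near both. Of the other members, FUBP3 came closest, at rank 296 (r = 0.781) for FUBP1 and at rank 200 (r = 0.819) for KIAA0907, while KHDRBS1 (r = 0.069) and KHDRBS3 (r = 0.028) showed little likeness to FUBP1.

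**Figure D2:**
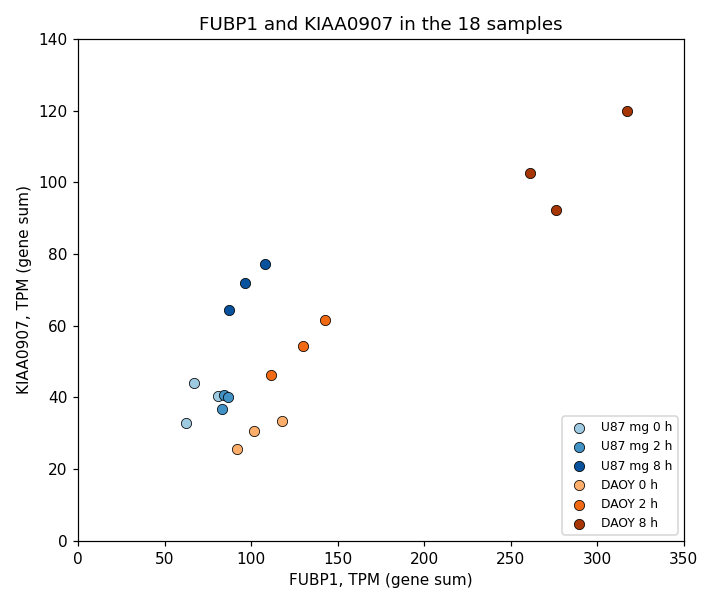
TPM of KIAA0907 (vertical axis) against TPM of FUBP1 (horizontal axis) in each of the 18 samples, colored by line and exposure. The 3 DAOY samples at 8 h stand apart at the upper right (261.3 to 317.0 TPM of FUBP1, 92.3 to 119.9 TPM of KIAA0907), and the U87 mg samples at 8 h hold more KIAA0907 (64.3 to 77.3 TPM) than the DAOY samples at 0 h (25.6 to 33.3 TPM), whose levels of FUBP1 overlap with theirs.

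In FUBP1 the coding transcript and the decay-type transcript both stood higher at 8 h in DAOY. ENST00000370768 was 43.5, 50.2 and 70.5 TPM at 0 h, 70.6, 68.0 and 69.0 at 2 h, and 154.8, 161.0 and 140.9 at 8 h. ENST00000294623 was 9.62, 15.9 and 21.0 TPM at 0 h, 10.0, 14.0 and 23.0 at 2 h, and 58.6, 48.4 and 48.2 at 8 h. The means at 8 h were 2.78 and 3.34 times those at 0 h. The decay-type share of both was 21.7% ± 3.16 (SD, n = 3) at 0 h, 18.2% ± 6.33 at 2 h and 25.4% ± 2.18 at 8 h in DAOY, and 20.4% ± 2.42, 25.7% ± 8.29 and 27.7% ± 7.62 in U87 mg. The ranges of the share overlapped between 0 h and 8 h in both lines. ENST00000370767, with the longer last exon, was 5.70, 8.87 and 4.05 TPM in DAOY at 0 h and 16.4, 25.98 and 18.3 at 8 h, and never above 3.13 TPM in U87 mg. This difference between the lines was not tested, and how many other transcripts showed such a separation was not counted. Among the remaining transcripts, ENST00000489495 and ENST00000483894 lie downstream of the end of the coding transcript and are annotated without an open reading frame. In DAOY they went from 4.88 ± 0.95 and 5.42 ± 3.10 TPM at 0 h to 17.8 ± 6.70 and 14.7 ± 2.34 TPM at 8 h. ENST00000421641, a 9-exon transcript of the 5′ part, was 11.99 ± 4.51 TPM at 0 h and 15.9 ± 6.81 at 8 h, with overlapping samples. All protein-coding transcripts of FUBP1 together held 70.1% ± 4.02 of its TPM at 0 h and 66.2% ± 0.71 at 8 h in DAOY, against 63.9% ± 0.92 and 56.2% ± 5.75 in U87 mg.

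In KIAA0907 the spliced transcript carried most of the level, and the transcript with the retained intron followed another course. ENST00000368321 was 17.4, 19.4 and 26.2 TPM at 0 h, 38.1, 41.8 and 56.9 at 2 h, and 70.3, 88.0 and 75.1 at 8 h in DAOY. The U87 mg samples held 29.9, 23.6 and 19.4 TPM at 0 h, 31.4, 30.3 and 29.1 at 2 h, and 54.9, 59.6 and 67.2 at 8 h. At 8 h the spliced transcript stood above all 0 h samples in both lines, at 3.71 and 2.495 times the mean at 0 h. ENST00000368320 was 6.94, 5.49 and 3.61 TPM at 0 h, 2.31, 5.43 and 2.35 at 2 h, and 13.5, 18.9 and 18.2 at 8 h in DAOY. The U87 mg samples held 6.498, 7.97 and 4.27 TPM at 0 h, 3.21, 3.71 and 3.55 at 2 h, and 4.01, 6.62 and 4.37 at 8 h. The retained form thus stood higher at 8 h in DAOY and not in U87 mg, where the 2 h samples lay below those at 0 h.

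The share of the retained form in both transcripts was 17.9%, 25.2% and 18.1% at 0 h, 9.26%, 10.9% and 10.9% at 2 h and 6.80%, 10.0% and 6.10% at 8 h in U87 mg. Both later times lay wholly below 0 h. In DAOY it was 28.5%, 22.1% and 12.1% at 0 h, 5.71%, 11.5% and 3.96% at 2 h and 16.1%, 17.7% and 19.5% at 8 h. Here the 2 h samples lay below the other times, and the 8 h samples fell within the range at 0 h. Taken from estimated counts, which weight the longer transcript more, the mean shares were 28.4%, 15.2% and 11.4% in U87 mg and 28.96%, 10.5% and 25.1% in DAOY. These shares rest on how Kallisto divided reads that fit both transcripts, and they were not tested.

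**Figure D3:**
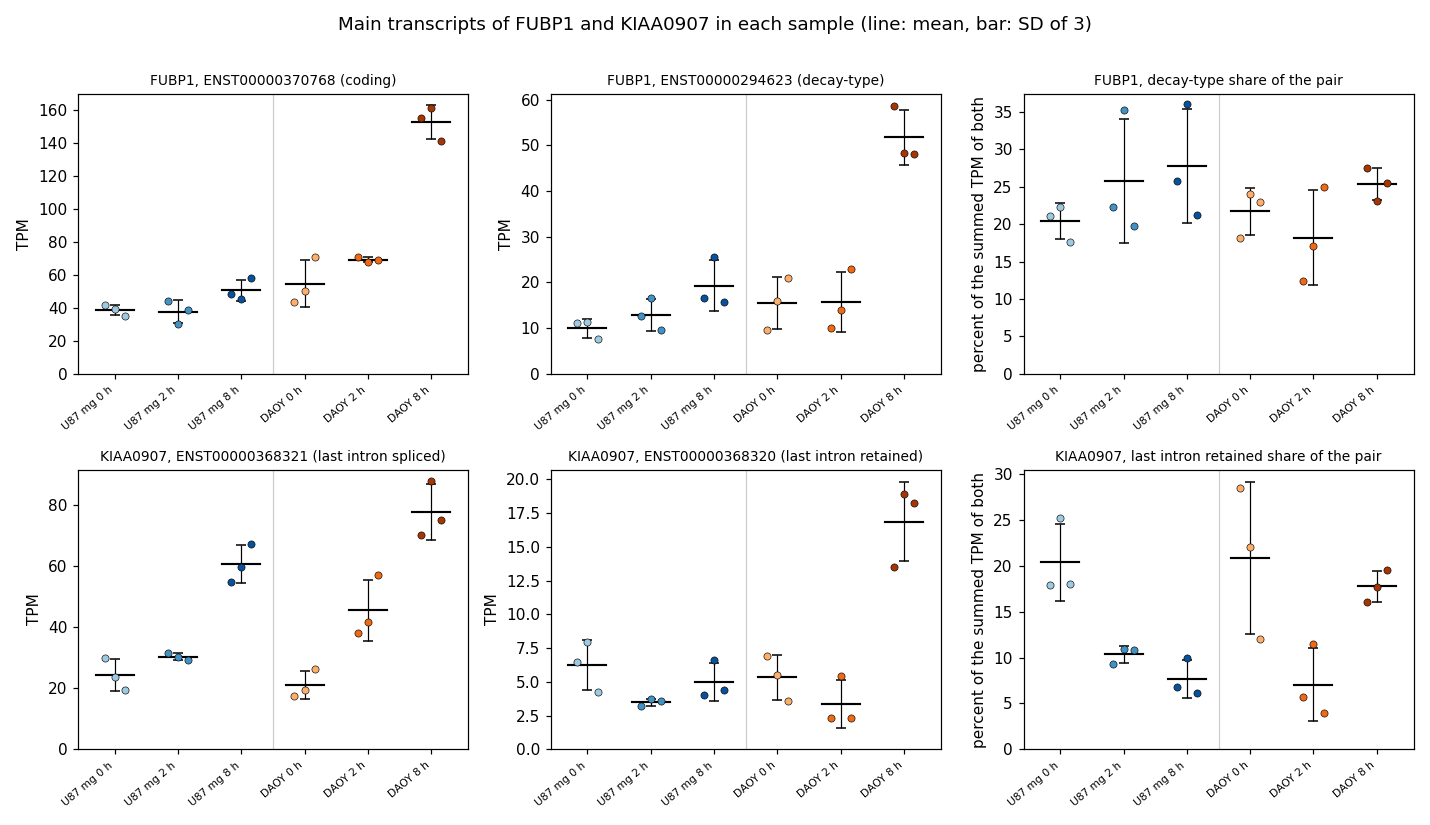
Main transcripts of FUBP1 (top row) and KIAA0907 (bottom row) in the 18 samples: TPM of ENST00000370768 and ENST00000368321 (left), TPM of ENST00000294623 and ENST00000368320 (middle) and the share of the latter in the summed TPM of the pair, in percent (right), by line and exposure. Points are samples, lines are means and bars are SD (n = 3), and the share with the last intron of KIAA0907 goes from 20.4% to 7.64% in U87 mg while in DAOY it goes from 20.9% through 7.06% to 17.8%.

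FUBP3, KHSRP, KHDRBS1, KHDRBS3 and QKI did not pass the criteria in any of the 4 comparisons with 0 h. The count was 0 of 5 in each, by the edgeR quasi-likelihood test, by DESeq2 and by limma. Over all genes, counting both directions, edgeR called 0.638% in U87 mg and 3.13% in DAOY at 8 h, and 0% at 2 h in both lines. At an unadjusted p under 0.05 by edgeR there were 2 of the 5 in U87 mg at 8 h (FUBP3 and KHSRP), 1 in DAOY at 8 h (FUBP3) and 0 at 2 h in either line. Over all genes, 15.9% in U87 mg and 22.7% in DAOY had such a p at 8 h, and 8.78% and 2.75% at 2 h. The difference of the 8 h changes between the lines was called for 0 of the 5, beside 0.0121% of all genes. For 0 of the 5 its unadjusted p was under 0.05, beside 8.88% of all genes.

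FUBP3, a member of the FUBP1 family, had small positive fold changes at 8 h that did not pass the test. In DAOY it was 108.5, 101.4 and 118.8 TPM at 0 h and 127.3, 123.3 and 131.1 at 8 h. In U87 mg it was 50.1, 47.9 and 46.7 TPM at 0 h and 53.8, 57.4 and 61.4 at 8 h. In both lines the 8 h samples lay above those at 0 h in TPM, and FUBP3 was the only one of the 5 genes for which they did. Over all genes, 8.86% in DAOY and 5.8% in U87 mg showed this in TPM. The log2 fold change was 0.34 ± 0.14 (SE) in DAOY (adjusted p = 0.169, from the edgeR quasi-likelihood test after Benjamini-Hochberg adjustment) and 0.38 ± 0.11 in U87 mg (adjusted p = 0.106). Intervals of 2 SE ran from 0.07 to 0.61 and from 0.16 to 0.60, so a log2 fold change of 1 lay outside both. At 2 h the values were 0.05 ± 0.14 and 0.20 ± 0.11, with adjusted p = 0.999 and 0.495 by the same test. The main transcript, ENST00000319725, carried between 86.7% and 97.2% of the TPM of the gene.

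KHSRP scattered widely between samples of one group. In DAOY it was 83.2, 162.8 and 118.3 TPM at 0 h and 150.7, 130.0 and 121.9 at 8 h. In U87 mg it was 53.8, 90.0 and 90.4 TPM at 0 h and 100.3, 96.4 and 85.6 at 8 h. All groups overlapped with their 0 h samples in TPM. In CPM the U87 mg samples at 8 h (133.83 to 139.42) lay above those at 0 h (89.36 to 123.27). The share of all genes that did so in CPM was not counted. The log2 fold change at 8 h was 0.23 ± 0.18 (SE) in DAOY (adjusted p = 0.505, edgeR) and 0.40 ± 0.14 in U87 mg (adjusted p = 0.174, edgeR). At 2 h it was 0.07 ± 0.18 and 0.04 ± 0.14. The short transcript ENST00000594496 of 3 exons held between 23.2% and 41.0% of the TPM of the main pair with ENST00000398148, and between 8.2% and 17.3% of its estimated counts.

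KHDRBS1, which binds RNA downstream of tyrosine kinase signals, varied little between the times. It lay between 168.7 and 192.2 TPM in the 9 DAOY samples and between 124.6 and 182.2 TPM in the 9 U87 mg samples. In TPM the times overlapped in DAOY, and in U87 mg the 2 h samples lay above those at 0 h. FUBP3 was the other one of the 5 genes with all 3 samples higher at 2 h in U87 mg, where 10.8% of all genes showed this. In CPM the 0 h and 2 h samples of U87 mg overlapped for KHDRBS1 (235.95 to 284.87 and 267.19 to 309.38). They did so for FUBP3 too (83.29 to 97.95 and 97.31 to 104.12). The log2 fold changes of KHDRBS1 at 8 h were -0.03 ± 0.12 (SE) in DAOY and 0.05 ± 0.13 in U87 mg, with adjusted p = 0.938 and 0.898 (edgeR). The intervals of 2 SE ran from -0.27 to 0.22 and from -0.20 to 0.30. An antisense gene, AL445248.1, overlaps KHDRBS1. The library kit keeps the strand, but whether the assignment of reads used it is not given in the sources used here.

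KHDRBS3, the relative of KHDRBS1, rested on few reads, with 132 to 359 estimated counts per sample. It was 59.5, 83.4 and 34.8 TPM in DAOY at 0 h and 107.5, 82.7 and 66.8 at 8 h, and 101.5, 79.7 and 129.7 TPM in U87 mg at 0 h and 98.5, 82.9 and 90.1 at 8 h. All groups overlapped with their 0 h samples. Much of its TPM came from 2 short transcripts without an open reading frame, ENST00000518728 (197 bases) and ENST00000522433 (396 bases), the first of which was listed at 0 in 2 DAOY samples at 0 h and at 36.2 TPM in the third. Counts and TPM therefore went apart, with a log2 fold change of 0.02 ± 0.32 (SE) from counts in DAOY at 8 h beside a ratio of 1.45 between the mean TPM values. A change of up to 0.65 upward or 0.61 downward (log2, 2 SE) was within the error.

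QKI had the highest mean level of the 7 genes in DAOY. It was 306.9, 239.2 and 214.4 TPM in DAOY at 0 h, 298.4, 204.5 and 239.5 at 2 h, and 312.0, 288.8 and 293.7 at 8 h. In U87 mg it was 152.9, 121.4 and 127.0 TPM at 0 h, 160.8, 149.7 and 133.3 at 2 h, and 154.7, 163.0 and 144.4 at 8 h. All later groups overlapped with 0 h. The log2 fold change at 8 h was 0.30 ± 0.17 (SE) in DAOY (adjusted p = 0.341, edgeR) and 0.22 ± 0.13 in U87 mg (adjusted p = 0.451, edgeR). Most of its TPM came from ENST00000537041, an incomplete coding transcript of 583 bases, and from ENST00000361758, annotated as a target of nonsense-mediated decay, which took 44.8 ± 6.06 TPM in U87 mg and 77.0 ± 7.17 TPM in DAOY at 0 h (SD, n = 3). By estimated counts, which weight longer transcripts more, ENST00000537041 held only between 3.9% and 10.2% of this pair. At the level of transcripts, these 5 genes had 27 tested in the U87 mg fit and 26 in the DAOY fit, of which 0 and 0 were called by edgeR or DESeq2 at either time, beside 0% of all transcripts by edgeR and, by DESeq2, 0.579% and 0.842% in U87 mg and 0.426% and 2.96% in DAOY at 2 h and 8 h. At an unadjusted p under 0.05 by edgeR there were 2 at 2 h and 4 at 8 h in U87 mg, and 0 and 3 in DAOY. Over all transcripts, 2257 and 2559 of 40613 had such a p in U87 mg, and 1269 and 4276 of 41336 in DAOY.

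**Figure D4:**
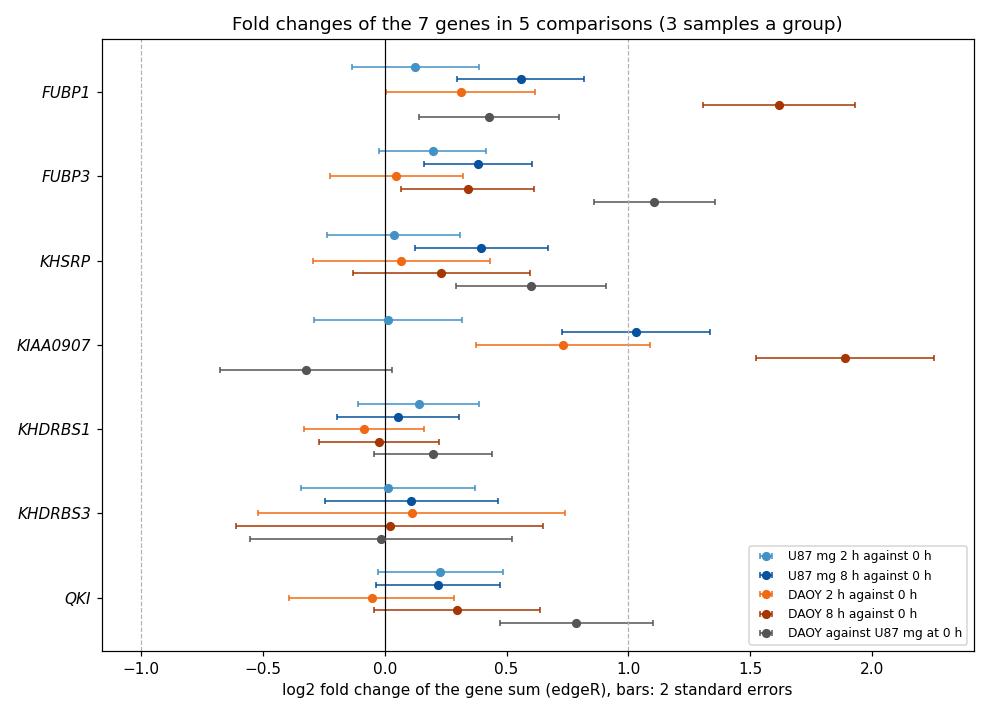
Log2 fold changes of the 7 genes (rows) in 5 comparisons (colors), from edgeR fits of gene sums, with bars of 2 standard errors and dashed lines at -1 and 1. Beyond 1 lie FUBP1 and KIAA0907 in DAOY at 8 h, KIAA0907 in U87 mg at 8 h and FUBP3 between the lines, and all other values lie between -0.32 and 0.79.

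Without the field, 3 of the 5 genes added as relatives differed between the lines at an FDR below 0.05, beside 60.7% of all genes. FUBP3 was higher in DAOY than in U87 mg, with 109.6 ± 8.79 against 48.2 ± 1.74 TPM (SD, n = 3), which gave 1.11 ± 0.12 (SE) as log2 fold change (adjusted p = 6.2e-07, edgeR). It was the 1 of these 5 genes called, beside 41.2% of all genes called between the lines and 23.4% called higher in DAOY. QKI was 253.5 ± 47.9 against 133.8 ± 16.8 TPM, or 0.79 ± 0.16 as log2 fold change (adjusted p = 0.00033, edgeR). KHSRP was 121.5 ± 39.9 against 78.1 ± 21.0 TPM, or 0.60 ± 0.15 as log2 fold change (adjusted p = 0.0026, edgeR), although its samples overlapped in TPM and limma on log2(TPM + 0.1) gave an adjusted p = 0.054. QKI and KHSRP passed the FDR alone, as did FUBP3, beside 60.7% of all genes, but stayed under the fold threshold. FUBP1 was 103.9 ± 13.02 against 70.2 ± 9.58 TPM, or 0.43 ± 0.14 as log2 fold change, and KIAA0907 29.9 ± 3.91 against 39.1 ± 5.72 TPM, or -0.32 ± 0.18. Both were chosen with these 0 h samples in use, so no p is given for them.

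KHDRBS1 and KHDRBS3 did not pass. KHDRBS1 had a log2 fold change of 0.20 ± 0.12 (SE, adjusted p = 0.168, edgeR), although its 3 DAOY samples lay above those of U87 mg in TPM. KHDRBS3 had -0.02 ± 0.27 (adjusted p = 0.963, edgeR) from counts, while its mean TPM in DAOY was 0.571 times that in U87 mg, and limma on log2(TPM + 1) gave -0.86 (adjusted p = 0.040). In TPM, 4 of the 7 genes (FUBP1, FUBP3, KHDRBS1 and QKI) had all 3 DAOY samples above all 3 U87 mg samples at 0 h, beside 33.7% of all genes. The mean TPM of FUBP3 in DAOY was 2.27, 2.13 and 2.21 times that in U87 mg at 0 h, 2 h and 8 h.

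Genes that FUBP1 is known to work with or act on were set beside it. Of 9 genes tied to FUBP1 or FUSE (the target MYC, the partner PUF60, the helicase ERCC3, AIMP2, USP29 and the target genes CDKN1A, CCND2, BIK and MDM2), 6 had enough counts for the test in U87 mg and 8 in DAOY, and 0 were called at 2 h or 8 h in either line by edgeR, DESeq2 or limma. At an unadjusted p under 0.05 by edgeR there were 0 in U87 mg at either time and 1 in DAOY at each time. Over all genes, 8.78% and 15.9% had such a p in U87 mg at 2 h and 8 h, and 2.75% and 22.7% in DAOY. The median log2 fold change of the list at 8 h was -0.03 in DAOY and -0.04 in U87 mg, beside -0.01 and 0.00 over all genes, with members on both sides. MYC, named here after its values were seen, was 9.65 ± 2.16 TPM at 0 h, 14.8 ± 2.57 at 2 h and 14.5 ± 1.91 at 8 h in DAOY (SD, n = 3). Its log2 fold change at 8 h was 0.64 ± 0.21 (SE, adjusted p = 0.103, edgeR) in DAOY and 0.28 ± 0.14 (adjusted p = 0.358) in U87 mg. AIMP2, likewise, had -0.73 ± 0.36 (adjusted p = 0.266, edgeR) in DAOY and -0.14 ± 0.22 in U87 mg. MDM2 and CDKN1A, the most abundant of the list, had -0.20 ± 0.17 and 0.55 ± 0.33 (SE) in DAOY at 8 h, and -0.05 ± 0.15 and -0.04 ± 0.20 in U87 mg. Between the lines at 0 h, 4 of 8 were called, beside 41.2% of all genes. MYC was 9.65 ± 2.16 TPM in DAOY and 23.0 ± 1.75 in U87 mg (adjusted p = 4.3e-06, edgeR), and MDM2 was 72.1 ± 14.3 and 167.2 ± 23.8 (adjusted p = 5.3e-06, edgeR). CCND2 was 14.1 ± 8.38 TPM in DAOY and 0.23 ± 0.28 in U87 mg, and BIK was 2.38 ± 1.61 TPM in DAOY and listed at 0 in U87 mg.

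Among 31 other KH-domain genes, 26 had enough counts for the test in U87 mg and 29 in DAOY. The count called by edgeR and DESeq2 was 0 in U87 mg at both times, and for DAOY 0 after 2 h and 1 after 8 h, and by limma on log2(TPM + 1) it was 0 throughout. At an unadjusted p under 0.05 by edgeR there were 2 and 8 in U87 mg at 2 h and 8 h, and 0 and 8 in DAOY, where 8.78% and 15.9% of all genes in U87 mg and 2.75% and 22.7% in DAOY had such a p. That gene was DDX53, an RNA helicase gene of low level, which fell from 3.21 ± 0.67 TPM at 0 h to 1.27 ± 0.28 TPM (SD, n = 3). Its log2 fold change was -1.26 ± 0.28 (SE, adjusted p = 0.031, edgeR), and 1.94% of all genes were called downward there. Its adjusted p by edgeR lay between 0.040 and 0.13 with a replicate left out, and its call was lost without DAOY replicate 2 at 0 h (0.10) and without DAOY replicate 0, 1 or 2 at 8 h (0.081, 0.13 and 0.086). By the FDR alone, 5 of 29 passed in DAOY at 8 h, beside 5.85% of all genes. Named after their values were seen, the other 4 were IGF2BP2 (0.78 ± 0.12), MEX3C (0.70 ± 0.15), IGF2BP1 (0.58 ± 0.14) and TDRKH (-0.77 ± 0.20). The median log2 fold change of the list at 8 h was 0.15 in DAOY and 0.18 in U87 mg. The most abundant members, HNRNPK and PCBP2, had 0.22 ± 0.14 and 0.14 ± 0.13 in DAOY and 0.32 ± 0.13 and 0.22 ± 0.11 in U87 mg. Between the lines at 0 h, 7 of 29 were called higher and 2 lower in DAOY, beside 23.4% and 17.8% of all genes. IGF2BP1, an oncofetal mRNA-binding protein gene, was 19.2 ± 3.79 TPM in DAOY and 0.12 ± 0.20 in U87 mg. MEX3A was 7.16 ± 2.56 against 0.52 ± 0.25 TPM, DDX53 3.21 ± 0.67 against 0.04 ± 0.07 TPM, and HDLBP 335.7 ± 40.2 against 763.5 ± 18.4 TPM. PCBP4, the other gene called lower, was 4.07 ± 1.62 against 14.96 ± 8.05 TPM.

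Genes of the PRP19 complex, with which KIAA0907 associates, and other splicing genes also did not meet the criteria at 2 h or 8 h. By the FDR alone (edgeR), 1 of the 18 splice site factors passed in U87 mg at 8 h, beside 243 of all 14106 genes. Of 6 PRP19 complex genes and of 18 factors of the branch point and 3′ splice site, all were tested, and 0 were called at 2 h or 8 h in either line by edgeR, DESeq2 or limma. At an unadjusted p under 0.05 by edgeR there were 1, 1, 0 and 1 of the PRP19 complex and 1, 3, 0 and 4 of the splice site factors for U87 mg at 2 h and 8 h, then DAOY at 2 h and 8 h. In the same order, 8.78%, 15.9%, 2.75% and 22.7% of all genes had such a p. The median log2 fold changes of these 2 lists at 8 h were -0.11 and 0.06 in DAOY and 0.14 and 0.20 in U87 mg. BCAS2 and PLRG1, the most abundant of the PRP19 complex, had -0.50 ± 0.14 (adjusted p = 0.060, edgeR) and -0.04 ± 0.17 in DAOY, and 0.14 ± 0.12 and 0.27 ± 0.13 in U87 mg. SF3B1 and SF3B6, the most abundant splice site factors, had 0.24 ± 0.17 and -0.04 ± 0.14 in DAOY and 0.26 ± 0.13 and 0.25 ± 0.12 in U87 mg. Between the lines at 0 h, where 41.2% of all genes were called, CDC5L was the 1 of 6 PRP19 complex genes called by edgeR and limma called 2. CDC5L was 61.5 ± 3.31 TPM in DAOY and 26.3 ± 3.25 in U87 mg (adjusted p = 2.4e-06, edgeR). Of the 18 splice site factors, 0 were called by edgeR or DESeq2 and 1 by limma. By edgeR 8 of them had an unadjusted p under 0.05, beside 64.3% of all genes.

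**Figure D5:**
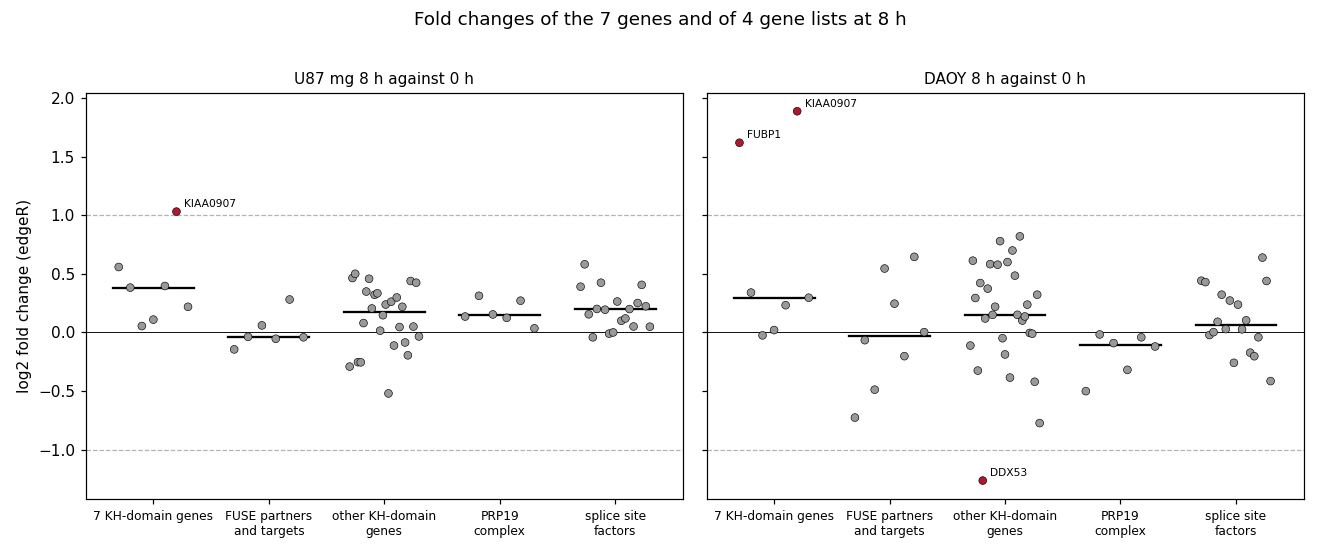
Log2 fold change at 8 h (edgeR, vertical axis) of every tested gene of the 7 KH-domain genes and of 4 lists of related genes, in U87 mg (left) and DAOY (right), with the median of each list as a line and dashed lines at -1 and 1. Red points met the criteria: KIAA0907 in U87 mg, and FUBP1, KIAA0907 and, downward, DDX53 in DAOY. FUBP1 and KIAA0907 were chosen for their 8 h change. Their points and the median of the 7 genes are therefore a description and no comparison with the lists.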

How the data were processed

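The authors assigned single-end reads to the GENCODE 24 transcripts (GRCh38.p5) with Kallisto 0.43.0 and deposited one table that gives, for each sample and transcript, a TPM value and an estimated count. They also deposited the p-values, q-values and log2 fold changes of their Sleuth comparisons, which were not used here. The estimated counts, 88.8% of which were not whole among those above 0, were summed by gene name and rounded. The sums were filtered with filterByExpr, scaled by TMM and tested with the quasi-likelihood test of edgeR 4.0.16 in R 4.3.3. The SE of a log2 fold change was derived from this test, as its size divided by the square root of the F statistic, so intervals of 2 SE are approximate. The 9 samples of a line shared 1 fit, and comparisons between lines used all 18. A gene was called at an FDR (Benjamini-Hochberg over all genes) below 0.05 with a log2 fold change beyond 1 in size, or at the FDR alone for the difference of changes. Transcripts were tested likewise. Likeness used log2 CPM (prior count 2) of genes with a mean CPM of at least 10. DESeq2 1.42.0 and limma 3.58.1 were alternatives, beside other filters, pseudocounts of 1 and 0.1, the replicate number as a block and each replicate left out.

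Gene names, exons and sequences came from GENCODE 29 on GRCh38, to which all 67 transcripts matched. TPM is scaled to transcript length and library total, so it allows levels of genes to be compared. Reads that fit several transcripts were divided by Kallisto, so shares of transcripts are estimates. The study's methods call the 3 samples of a group biological replicates, picked for their quality results, and do not say which cultures they came from, so p-values measure only the spread between these samples. The members, lists and tests were chosen with earlier results of these data known. Named were all members, the called genes (up to 4 by smallest adjusted p) and the 2 most abundant genes of each list, and the 5 genes most like FUBP1 and KIAA0907. The tests were checked on simulated counts.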

Additional observations from a re-analysis of the deposited data

How the results depend on the processing

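FUBP3 between the lines was called in each of the 6 fits with a replicate left out and in each of 8 other alternatives. FUBP1 and KIAA0907 were chosen for their 8 h change, so calls of it under other settings say nothing about its stability. In U87 mg at 2 h, where edgeR called 0 genes, DESeq2 called 3, limma 1 with either pseudocount (1 or 0.1), and the fit with no filter on low counts 57. In U87 mg at 8 h (90 genes), limma called 9 with a pseudocount of 1 and 19 with 0.1, no filter gave 233, all 18 samples in one fit 58 and the FDR alone 243. In DAOY at 2 h (0 genes), DESeq2 called 1 and no filter gave 18. In DAOY at 8 h (482 genes), limma called 318 with a pseudocount of 1, all 18 samples in one fit gave 732 and the FDR alone 900. Between the lines at 0 h (6786 genes), a minimum of 10 counts in every sample left 3289. For the difference of the 8 h changes (2 genes), DESeq2 called 84, limma 10 with a pseudocount of 1, no filter gave 158 and the minimum of 10 counts 1. Of the 5 genes other than FUBP1 and KIAA0907, 3 passed the FDR alone between the lines, against 1 with the fold threshold. Summed over the comparisons with 0 h, DESeq2 called 8 transcripts of the 7 genes and edgeR 2 with no filter, against 0. All 8 belonged to FUBP1 and KIAA0907, the genes chosen for their change, so nothing is read from them. They were 0 and 1 of 9 for U87 mg at 2 h and 8 h, and 1 and 6 of 11 for DAOY. In the same order, DESeq2 called 0.579%, 0.842%, 0.426% and 2.96% of all transcripts. Of the 5 other genes it called 0. The 2 by edgeR, among 10 called of 125705 transcripts in DAOY at 8 h, were not split by gene. The share of protein-coding transcripts, as the median over the 7 genes and 18 samples, went from 86.83% of TPM to 94.03% of estimated counts. The cause of these moves was not tested.

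With a replicate left out, the genes called ran from 0 to 71 in U87 mg at 2 h (71 without U87 mg replicate 0 at 0 h), from 0 to 136 in U87 mg at 8 h (0 without replicate 2 at 8 h, and 5, 33 and 136 without replicates 2, 1 and 0 at 0 h), from 31 to 402 in DAOY at 8 h (31 and 75 without replicates 1 and 2 at 8 h, 268 without replicate 2 at 0 h), from 6671 to 7068 between the lines and from 1 to 5 for the difference of changes.

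Small log2 fold changes of the 5 genes changed sign. By limma with pseudocounts of 1 and 0.1, KHSRP was -0.086 and -0.087 in U87 mg at 2 h, KHDRBS1 -0.0218 and -0.022 and KHDRBS3 -0.17 and -0.17 in U87 mg at 8 h, and KHDRBS3 0.75 and 0.76 for the difference of changes. With at least 10 counts in every sample, KHDRBS3 was -0.0029 in U87 mg at 2 h and 0.0174 between the lines, and FUBP3 0.0149 for the difference of changes. KHDRBS3 was -0.0072 in DAOY at 8 h with all 18 samples in one fit, and between the lines 0.0241 by DESeq2 and 0.023 with only the 6 samples at 0 h. With a replicate left out, KHSRP ran from -0.0858 to 0.14 in U87 mg and from -0.12 to 0.19 in DAOY at 2 h, KHDRBS3 from -0.11 to 0.14 and from -0.14 to 0.43 at 2 h, and FUBP3 from -0.0607 to 0.13 and QKI from -0.18 to 0.15 in DAOY at 2 h. At 8 h KHDRBS1 ran from -0.0118 to 0.16 in U87 mg and from -0.0818 to 0.0209 in DAOY, and KHDRBS3 from -0.21 to 0.34 in DAOY. KHDRBS3 ran from -0.35 to 0.20 between the lines. For the difference of changes the ranges were -0.15 to 0.0631 (FUBP3), -0.17 to 0.0307 (KHDRBS1), -0.33 to 0.25 (KHDRBS3) and -0.0614 to 0.31 (QKI).

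The replicate numbers were shared between groups, and with 3 samples a group it cannot be settled whether they pair the samples. The correlation of same-numbered deviations from the group means ran from -0.143 to 0.16 in U87 mg and from -0.042 to 0.276 in DAOY at 8 h, with 1 of 3 pairs over 0.1 in each. Between the lines at 0 h it ran from 0.008 to 0.411, with 2 of 3 pairs over 0.1. For samples with different numbers it ran there from -0.4 to 0.263. With the replicate block, 0 genes were called at 2 h in both lines, 68 and 326 at 8 h in U87 mg and DAOY, 6822 between the lines and 2 for the difference of changes. The call of DDX53 in DAOY at 8 h was lost under the block. Few reads limit the values of KHDRBS3.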

Other observations

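A pair of QKI transcripts with different 3′ ends had opposite differences at 8 h. They were chosen after their values were seen, so these differences are a description. ENST00000361752 (8 exons, 341 codons) and ENST00000392127 (6 exons, 319 codons) share their exons up to base 163563719 of the plus strand of chromosome 6 (GRCh38), where the first is spliced onward and the second reads on into the intron. The last 15 shared bases are in lower case and the next 15 in capitals, which in the second open with the GT of a 5′ splice site.
ENST00000361752 (chr6:163566721-163566735 after the junction): ctagtggtgtattagGTGCGGTGGCTACTA
ENST00000392127 (chr6:163563720-163563734, intron): ctagtggtgtattagGTAAGTTCTTCTCCC

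The mean of the spliced transcript was lower and that of the transcript that reads on was higher at 8 h in both lines. In U87 mg, ENST00000361752 was 2.94, 2.37 and 2.19 TPM at 0 h and 1.05, 0.91 and 1.69 at 8 h, and ENST00000392127 was 1.14, 1.40 and 2.27 TPM at 0 h and 2.72, 3.68 and 2.35 at 8 h. In DAOY they were 5.16, 4.11 and 3.59 TPM at 0 h and 2.34, 2.96 and 1.86 at 8 h, and 3.10, 2.23 and 0.95 TPM at 0 h and 2.94, 9.44 and 6.45 at 8 h. Only the second transcript in DAOY overlapped between the times. The share of ENST00000392127 in both was 27.9%, 37.2% and 50.9% at 0 h and 72.1%, 80.3% and 58.2% at 8 h in U87 mg, and 37.5%, 35.1% and 20.9% at 0 h and 55.7%, 76.1% and 77.6% at 8 h in DAOY. In both lines the 8 h samples lay above those at 0 h, and the 2 h means stood between, at 45.4% ± 7.25 and 42.1% ± 3.46 (SD, n = 3). How many other pairs of transcripts showed such a separation was not counted. Over all transcripts, no difference passed the threshold: in the order ENST00000361752 and ENST00000392127, the adjusted p was 0.57 and 0.69 in U87 mg and 0.37 and 0.40 in DAOY by edgeR, and 0.078 and 0.28 in U87 mg and 0.092 and 0.14 in DAOY by DESeq2. The estimated counts behind these values ran from 43.1 to 454 per sample, and other QKI transcripts share parts of the same exons and intron.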
